A study of Mus musculus with 13 samples.

Results

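The genes described here encode the potassium, voltage-gated calcium and voltage-gated sodium channels of the mouse and their accessory subunits. They were chosen by symbol alone, from the symbols beginning with Kcn, Cacn followed by a, b or g, or Scn followed by a digit, with the non-coding RNA Kcnq1ot1 left out. Of the 23904 differentially methylated sites in the authors' deposited table, 177 carried such a symbol, at 84 genes. Potassium channel genes held 123 of the sites (60 genes), calcium channel genes 40 (18 genes) and sodium channel genes 14 (6 genes). RefSeq for GRCm38.p6 names 134 protein-coding genes by the same rule, and all 84 symbols were among them. The remaining ones had no site in the table, which lists only sites past the authors' limits, so whether they were covered is unknown.

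Methylation was measured by targeted bisulfite sequencing of liver DNA, in which unmethylated cytosine is converted and read as thymine. The 13 mice formed 2 groups, 7 on a low fat/low sucrose diet and 6 on a high fat/high sucrose diet. The labels do not state strain, genotype, sex, age or time on the diet, nor what the prefix G1 or G2 of the sample titles means. The table gives an average methylation level per diet and a methylation difference in percentage points, with low fat/low sucrose subtracted from high fat/high sucrose. Neither read counts nor values of single mice were analysed here: the depth is unknown and values carry no SD. All listed sites had a q of at most 0.0100 and an absolute difference of at least 5 points, and "rose" or "higher" and "fell" or "lower" mean a listed difference of that sign in high fat/high sucrose.

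Voltage-gated channels open a pore when the membrane is depolarised. Potassium efflux repolarises a cell, calcium influx couples voltage to secretion and contraction, and sodium influx carries the action potential. Hepatocytes are not excitable, but potassium channels set their resting potential and volume, and most of the genes below are best known from neurons, muscle, heart or endocrine cells. Many of these genes start in CpG islands, stretches rich in the CpG dinucleotide that are usually unmethylated.

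The promoters of 5 of these genes are shown because listed sites lay in their promoters and because their CpG numbers run from the median of all windows upwards. No window poorer in CpGs than the median is shown. Each is the RefSeq window of 300 bases, from 250 before to 50 after a transcription start, on the coding strand, with every CpG in capitals. The coordinates are GRCm38.p6 and cannot be compared with the site positions given later, which are mm9. The Kcnj4 window, chr15:79505192-79505491 on the minus strand, comes from the gene with the most sites. Those of Kcna3 (chr3:107035912-107036211, plus strand), Kcnh4 (chr11:100759729-100760028, minus strand) and Kcnh7 (chr2:63184238-63184537, minus strand) belong to potassium channel genes with a listed site in a promoter that is also a CpG island. These sites are listed at 524, 203 and 55 bp from the start, in that order, past the ends of the windows. The Cacna1c window (chr6:118757925-118758224, minus strand) belongs to a calcium channel gene with a highly methylated promoter site.
Kcnj4: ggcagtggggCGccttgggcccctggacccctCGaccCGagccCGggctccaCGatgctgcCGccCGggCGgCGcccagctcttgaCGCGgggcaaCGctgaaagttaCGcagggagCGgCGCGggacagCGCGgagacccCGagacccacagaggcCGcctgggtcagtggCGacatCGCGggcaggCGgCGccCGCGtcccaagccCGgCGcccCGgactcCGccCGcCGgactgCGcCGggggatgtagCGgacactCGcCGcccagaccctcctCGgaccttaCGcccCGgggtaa
Kcna3: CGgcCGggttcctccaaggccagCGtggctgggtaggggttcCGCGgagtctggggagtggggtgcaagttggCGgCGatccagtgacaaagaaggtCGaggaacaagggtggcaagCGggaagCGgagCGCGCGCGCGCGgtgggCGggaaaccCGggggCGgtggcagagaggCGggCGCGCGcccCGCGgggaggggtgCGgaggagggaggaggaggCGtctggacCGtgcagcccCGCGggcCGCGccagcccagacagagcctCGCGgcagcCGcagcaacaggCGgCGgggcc
Kcnh4: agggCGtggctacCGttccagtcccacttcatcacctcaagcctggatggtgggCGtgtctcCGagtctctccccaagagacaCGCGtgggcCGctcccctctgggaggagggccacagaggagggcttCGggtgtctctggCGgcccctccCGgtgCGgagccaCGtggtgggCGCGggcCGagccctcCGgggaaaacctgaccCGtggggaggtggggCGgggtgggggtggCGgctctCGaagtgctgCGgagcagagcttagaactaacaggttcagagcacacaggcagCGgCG
Kcnh7: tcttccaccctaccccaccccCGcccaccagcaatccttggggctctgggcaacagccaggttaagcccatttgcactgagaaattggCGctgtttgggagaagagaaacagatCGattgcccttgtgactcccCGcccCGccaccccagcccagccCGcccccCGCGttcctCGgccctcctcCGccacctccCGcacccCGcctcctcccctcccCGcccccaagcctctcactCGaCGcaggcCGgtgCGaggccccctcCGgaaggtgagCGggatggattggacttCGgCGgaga
Cacna1c: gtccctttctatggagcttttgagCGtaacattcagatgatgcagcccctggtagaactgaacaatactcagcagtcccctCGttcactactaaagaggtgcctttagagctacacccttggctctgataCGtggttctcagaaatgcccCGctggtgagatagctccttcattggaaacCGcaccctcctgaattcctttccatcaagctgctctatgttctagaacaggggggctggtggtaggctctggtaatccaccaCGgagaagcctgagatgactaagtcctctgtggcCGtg

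The Kcnj4 window held 41 CpGs, a number reached by 3.46% of all 32851 RefSeq windows. Kcna3 had 37, Kcnh4 23, Kcnh7 21 and Cacna1c 7, the last being the median over all windows. The GC box GGGCGG, a site bound by Sp1-type factors, was sought on both strands and was found 4 times in Kcnj4, 4 in Kcnh7, 2 in Kcna3 and 1 in Kcnh4. It did not occur in the Cacna1c window, and 35.7% of all windows held it. The TATA box TATAAA was in none of the 5 windows on either strand and in 13.6% of all windows. Windows were found for 62 of the 84 genes, 91 in all, with a median of 10 CpGs. Their share with the GC box was 44.0% and with the TATA box 3.30%.

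The authors' listed distances can be read against these windows. For genes with 1 window, a CpG stood at the listed distance for 178 of 288 sites upstream of a start (61.8%) and for 32 of 58 downstream (55.2%), against 19 and 7 of them at 20 bases from it. Downstream distances were read with a small shift towards the start that was not applied upstream. Among channel genes with a window, 3 sites were listed within its reach. For the Cacna1c site, listed at 48 bp downstream, 1 of the gene's 3 windows had a CpG there, the last capital pair printed above. That window was chosen for printing because of this CpG, so the match does not check the position of the site. For Kcnj16 (listed at -148 bp) and Kcnip2 (-245 bp) no window had a CpG at that distance.

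Of the 177 channel gene sites, 106 were higher and 71 lower in high fat/high sucrose. That is 59.9% higher (exact Clopper-Pearson 95% interval 52.3 to 67.2, which covers the counting of sites only), against 57.6% of all listed sites. The share lay near that of the whole table. The median rise was 13.3 points and the median fall -10.9 points in the authors' deposited table, against 11.7 and -11.6 points over all sites. All sites of a gene rose at 37 genes, all fell at 20, and 27 genes had sites of both directions. Over all 9100 named genes these counts were 3785, 2743 and 2572, and the difference was not tested. A gene with 1 site cannot have both directions, and 37 of the 84 channel genes had 1 site. Liver DNA comes from a mixture of cells, so a change in methylation within a cell type and a change in the share of a cell type cannot be told apart. Cell type marker genes moved in the same table: 20 of 21 sites of 6 hepatocyte marker genes were higher, as were 9 of 26 at 6 endothelial, 4 of 12 at 3 lymphocyte, 3 of 9 at 5 bile duct, 3 of 5 at 4 stellate and smooth muscle and 12 of 15 at 2 neuronal genes. None of the 5 macrophage symbols had a site. The part of cell composition in the channel gene values was not tested, and a list of differing sites cannot check the labelled tissue.

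**Figure D1:**
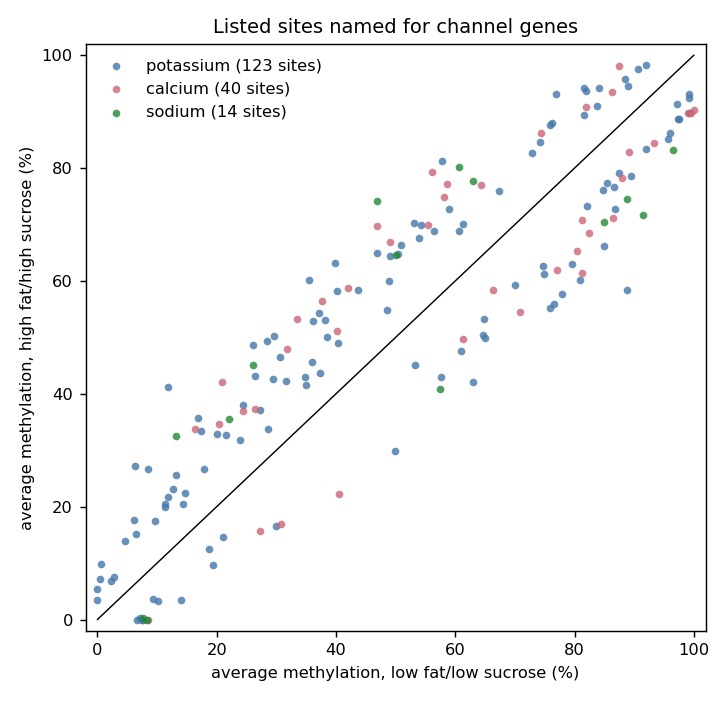
Average methylation of each of the 177 channel gene sites in low fat/low sucrose (horizontal axis, %) and high fat/high sucrose (vertical axis, %), coloured by ion, with the line of equal levels. The empty band along the line reflects the authors' limit of 5 points, and 106 points lie above the line and 71 below it.

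Larger differences were more often rises. Of the 119 channel gene sites with an absolute difference of 10 points or more, 77 (64.7%) were higher, of 55 at 15 points or more 39 (70.9%), and of 17 at 20 points or more 12 (70.6%). Over all listed sites the same shares were 57.8%, 58.7% and 59.3%. Large differences made up 9.60% of channel gene sites and 6.66% of all sites at the limit of 20 points.

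The largest rise was at Scn3b, which encodes a beta subunit that modulates sodium channel gating. In the authors' deposited table the Scn3b site at 40048502 on chromosome 9 had an average of 46.9% on low fat/low sucrose, and 74.1% on high fat/high sucrose, with 30.6 points as its difference (q = 0.000542). Pairs of averages below are given in this order of diets. The site lay outside any flagged gene feature, at a listed distance of -28299 bp (minus marks upstream). The largest fall was at Kcnc2, which encodes a fast delayed rectifier of the Shaw type. The 1 Kcnc2 site in the authors' deposited table, flagged as intronic on chromosome 10 at 111850183, averaged 88.8% and 58.4%, a difference of -25.6 points (q = 0.000627). Both sites were far from the start of the gene they are named for, Kcnc2 being listed at -42481 bp, so its intron flag belongs to another transcript.

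The counts in each direction varied between roles, with few sites in most roles. Leak channel genes had 12 of 13 sites higher, voltage-gated potassium pore genes 31 of 45, inward rectifier genes 21 of 36 and genes of calcium- or sodium-activated potassium channels 5 of 9. Potassium accessory subunit genes had 9 of 20. Among calcium channel genes the pore subunits had 9 of 18 sites higher, the alpha2delta subunit gene Cacna2d2 4 of 5, the beta subunits 4 of 7 and the gamma subunits 4 of 10. Sodium channel pore genes had 3 of 10 and sodium beta subunit genes 4 of 4, of which 2 were 60 bp apart at Scn3b. By ion the shares higher were 63.4% for potassium, 52.5% for calcium and 50% for sodium, beside 57.6% of all sites. Differences between roles and between ions were not tested.

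**Figure D2:**
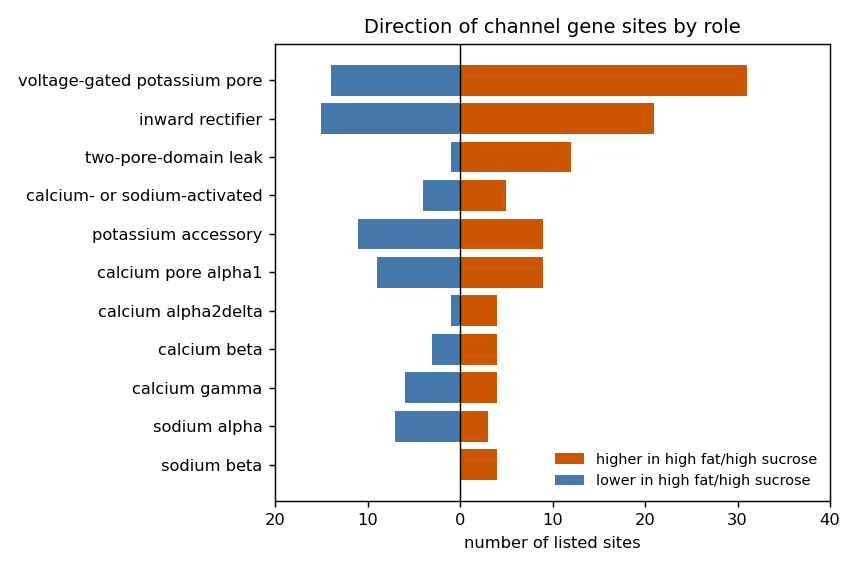
Number of channel gene sites higher (right of 0) and lower (left of 0) in high fat/high sucrose, by role of the encoded subunit. Leak channel genes have 12 sites to the right and 1 to the left, and sodium pore genes 3 and 7.

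Voltage-gated potassium pore genes carried 45 sites at 26 genes. All sites rose at 16 of them, all fell at 5, and 5 were mixed. The largest rise was at Kcnh1, which encodes the ether-a-go-go channel. Its intronic shore site in the authors' deposited table, on chromosome 1 at 194016844, 2092 bp into the gene, averaged 57.8% and 81.3% (27.0 points, q = 2.38e-05). A second Kcnh1 site 122052 bp from the start fell by 10.01 points in the authors' deposited table. Kcnh2, which encodes the HERG channel that repolarises the heart, had 3 of 3 sites higher, by 18.6, 18.2 and 16.7 points in the authors' deposited table. Kcnh3, a brain-enriched member of the same family, had 2 of 2 higher, the larger difference being 20.8 points, and the Kcnh8 site moved up by 14.5 points in the authors' deposited table.

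The Shaker-type genes Kcna1 and Kcna2, which encode axonal delayed rectifiers, moved up at every listed site, all of them in exons within island shores. The Kcna1 site in the authors' deposited table at 126592658 on chromosome 6 averaged 54.3% and 70% (18.5 points, q = 4.77e-06), the smallest q of the voltage-gated potassium genes. The 2 Kcna2 sites, 11 bp apart on chromosome 3, went from 29.7% to 50.2% and from 40.1% to 58.1% in the authors' deposited table. Kcna5, a channel of heart and vascular muscle, had 1 site that rose by 18.5 points, and Kcna6 1 that fell by 11.6 points in the authors' deposited table. The Kcna5 site lay 54120 bp from the start.

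Of the Shaw-type genes, Kcnc1 had 1 site, which rose from 11.8% to 21.7% in the authors' deposited table.

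Silent subunit genes (Kcnf, Kcng, Kcns and Kcnv), whose products do not form channels alone but alter Kv2 channels, carried 1 to 4 sites each. Kcns2 had 4 of 4 sites higher, by 8.49 to 17.4 points in the authors' deposited table. One of its sites, in an exon 1265 bp from the start, went from 0.649% to 9.84% in the authors' deposited table. The island site in the exon of Kcnf1 rose from 37.1% to 54.3% (21.3 points, q = 0.00108) in the authors' deposited table. Kcng4 had both directions within 10 kb: in the authors' deposited table its promoter shore site averaged 28.4% and 49.3% (18.5 points), its intronic shore site 49.9% and 29.9% (-18.2 points) and its exonic island site 99.2% and 89.8% (-9.23 points). Kcng1 had 2 of 3 sites higher, Kcng2 1 of 3 and Kcng3 0 of 1. Each of the Kcnq1, Kcnq3 and Kcnq5 genes, which encode slow M-type or cardiac currents, had 1 site, and these moved up by 9.29, 12.1 and 10.8 points in the authors' deposited table.

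Inward rectifier genes encode channels that pass potassium more easily into than out of the cell and hold the resting potential. They carried 36 sites at 12 genes, of which 9 were mixed. Kcnj4, which encodes the strong rectifier Kir2.3, had 9 sites, the most of any channel gene, 8 of them higher. A run of 6 of these, each within 1000 bp of the next, lay in the shore at -2045 to -1169 bp, and all 6 rose, by 5.26 to 13.5 points in the authors' deposited table. From the far end inwards their averages were 38.6% and 50.1%, 37.3% and 43.7%, 48.5% and 54.8%, 28.6% and 33.8%, 34.9% and 42.9%, and 2.76% and 7.57% in the authors' deposited table. The site in the promoter island, at 85 bp, went the other way, from 9.30% to 3.69% in the authors' deposited table. Its listed distance is beyond the end of the Kcnj4 window printed above. The other 2 sites, 10 bp apart in an intron at 10959 and 10969 bp, moved up by 15.2 and 11.2 points in the authors' deposited table. Neighbouring sites can share reads, so the run is not 6 independent measurements.

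**Figure D3:**
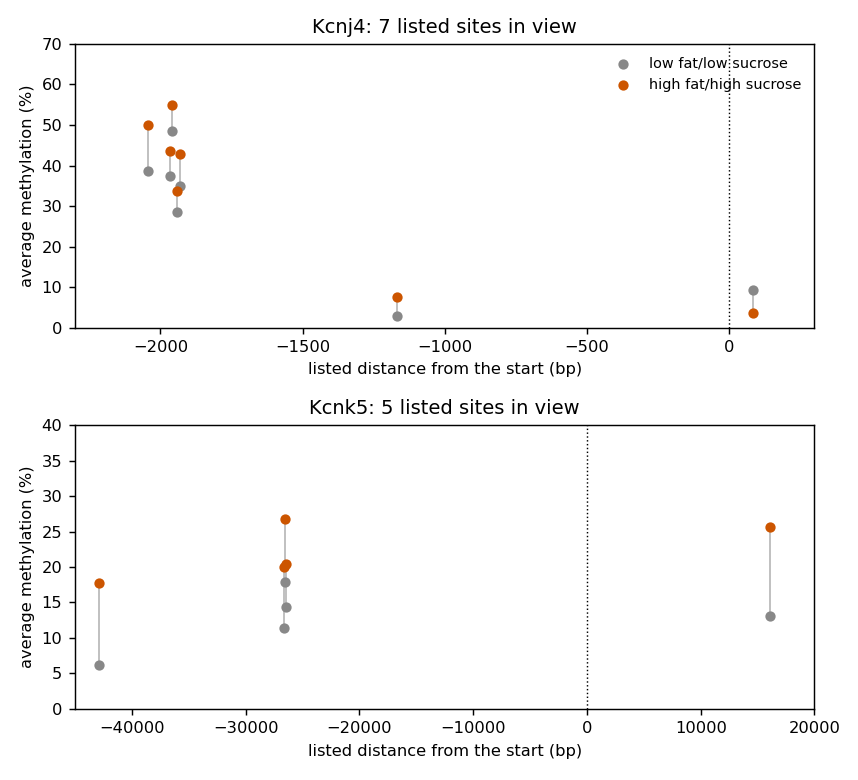
Average methylation (%) in low fat/low sucrose (grey) and high fat/high sucrose (orange) against the listed distance from the start (bp), for 7 Kcnj4 sites near the start (top) and the 5 Kcnk5 sites (bottom). At Kcnj4 the 6 upstream sites are higher in high fat/high sucrose and the promoter site lower, and all Kcnk5 sites are higher.

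Kcnj5, which encodes a subunit of the acetylcholine-activated cardiac channel, had 1 site, in its promoter outside islands and shores. In the authors' deposited table it averaged 26.1% and 48.7% (19.97 points, q = 1.49e-05), the smallest q of the inward rectifier genes. Its partner gene Kcnj3 had 2 promoter island sites 5 bp apart that fell from 7.10% to 0.321% and from 6.57% to 0% in the authors' deposited table, and another site 600519 bp away that rose by 5.70 points. Kcnj6, of the same G protein-gated group, had 5 sites, 2 of them higher, and Kcnj9 had 1 promoter site that fell from 86.7% to 76.6% in the authors' deposited table. Kcnj8, which encodes the pore of the vascular ATP-sensitive channel, had 3 of 4 sites higher, its promoter site averaging 29.4% and 42.7% in the authors' deposited table. For Kcnj11, the pore of the ATP-sensitive channel of pancreatic beta cells, the 1 site lay 13715 bp from the start and fell from 95.7% to 85.1% in the authors' deposited table.

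Kcnj2, which encodes the classical rectifier Kir2.1, had 4 sites, 2 in each direction. The largest of these differences was a fall from 80.9% to 60.1% (-22.4 points, q = 6.05e-05) in the authors' deposited table, at a site 419011 bp from the start with no gene feature. Another 2 lay still farther away, at 456316 and 466521 bp, so only the promoter site, which moved up by 10.1 points in the authors' deposited table, was close to the gene. Kcnj1, the renal channel ROMK, had a fall of -22.4 points at 11879 bp and a rise of 9.31 points at 62211 bp in the authors' deposited table. Kcnj12 fell by 19.3 points at a site listed at -16906 bp and rose by 7.91 points at an exonic island site that was already at 90.6% in the authors' deposited table. Kcnj10, the glial channel Kir4.1, and Kcnj16 had 1 site in each direction.

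Leak channel genes encode channels of the K2P type, whose subunits carry 2 pore loops and are open at rest. Of 13 sites at 7 genes, 12 were higher. Their methylation was low, with medians of 14.3% and 26.6% in the authors' deposited table, against 47.4% and 51.0% over all listed sites. Low sites rose more often in the whole table, and sites of these levels would be higher in 72.6% of cases if they followed all listed sites of the same level. Kcnk5, which encodes the acid-sensitive channel TASK-2, had 5 of 5 sites higher, with low fat/low sucrose averages from 6.12% to 17.9% and averages on the other diet from 17.7% to 26.7% in the authors' deposited table. A run of 3 of them lay within 122 bp, far upstream, so the 5 are not independent.

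Kcnk9, which encodes TASK-3 and is known as an imprinted gene expressed from the maternal allele in brain, had both its sites in a promoter that is a CpG island. The Kcnk9 site at 169 bp in the authors' deposited table averaged 6.22% and 27.1% (18.6 points, q = 0.00276) and the one at -67 bp 0.408% and 7.19% (8.30 points, q = 0.000552). Kcnk12 rose from 8.51% to 26.6% (20.4 points, q = 3.65e-05) at a site listed at -28765 bp in the authors' deposited table, the smallest q of the leak channel genes, and its second site rose by 15 points. Kcnk1, which encodes TWIK-1, rose from 24.4% to 38% in a shore 1944 bp into the gene in the authors' deposited table. Kcnk2, the mechanosensitive channel TREK-1, and Kcnk16 had 1 site each, higher by 6.88 and 11.9 points in the authors' deposited table. The 1 fall was at Kcnk18, from 97.5% to 88.7% in the authors' deposited table, the highest low fat/low sucrose level of the group.

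Genes of calcium-activated and sodium-activated potassium channels had 9 sites at 6 genes. Kcnma1, the BK channel pore, had 2 intronic shore sites 655 bp apart that moved in opposite directions, by 6.44 points (q = 4.24e-05) and -13.8 points in the authors' deposited table. Both sites of Kcnn3, a small-conductance channel of endothelium and neurons, fell, by 16.7 and 11.2 points in the authors' deposited table. Kcnn1 rose at a promoter island site from 2.24% to 6.76%, and Kcnn2 moved up by 13.1 points in the authors' deposited table. The sodium-activated channel gene Kcnt1 fell at its promoter shore from 29.9% to 16.6%, and the Kcnt2 sites moved up by 11.2 and 10.9 points in the authors' deposited table.

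Accessory potassium subunits included the KChIP genes, whose calcium-binding products escort Kv4 channels to the membrane. Kcnip2 had 3 of 3 sites higher, 1 of them in a promoter. In the authors' deposited table its intronic site on chromosome 19 at 45887810 averaged 12.7% and 23.2% (11.5 points, q = 2.37e-06), the smallest q of any potassium channel gene, and the site at 45879906 averaged 39.9% and 63.2% (21.1 points). By contrast Kcnip4 had 4 of 4 sites lower, with differences from -18.5 to -7.87 points, and Kcnip3 2 of 2 lower in the authors' deposited table. The Kcnip4 promoter site averaged 57.6% and 43.0% in the authors' deposited table. The single Kcnip1 site moved up by 14.7 points in the authors' deposited table.

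Kcnmb1, which encodes the smooth muscle beta subunit of the BK channel, held both a large rise and a large fall. Its site in the authors' deposited table at 33832249 on chromosome 11 averaged 11.8% and 41.3% (23.96 points, q = 0.000288) and the site at 33867812 averaged 77.9% and 57.7% (-19.2 points). The rising site was listed at -30764 bp from the Kcnmb1 start and carried an intron flag, so it lies in another transcript. Kcnmb4 had 2 of 4 sites higher. Kcnab2 and Kcne1 had 1 site each and rose by 9.59 and 9.41 points, while the Kcnab3 promoter shore fell from 10.1% to 3.22% in the authors' deposited table.

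Calcium channel pore genes encode the alpha1 subunits that conduct L, N, P/Q, R and T currents. They had 18 sites at 7 genes, 9 in each direction. The T-type gene Cacna1g showed both within 171 bp of 1 exon-flagged stretch: in the authors' deposited table a site at 16.4% rose to 33.7% (22.6 points, q = 0.00201) and one at 86.4% fell to 71.1% (-13.4 points, q = 0.000240). The T-type gene Cacna1i had 3 of 3 sites higher, by 13.7 to 20.3 points, all intronic and within 5 kb of the start in the authors' deposited table. The P/Q-type gene Cacna1a had 4 sites, of which the 2 at -1562 and 2390 bp rose by 16.7 and 17.9 points. Between them the Cacna1a promoter shore site went from 8.40% to 0%, and an intronic site listed at -30703 bp fell by 18.8 points in the authors' deposited table.

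Of the L-type genes, Cacna1c, the main channel of heart and vascular muscle, had 2 of 2 sites lower. Its promoter site averaged 93.3% and 84.4%, and its distal intronic site 70.9% and 54.5% in the authors' deposited table. Cacna1d, the L-type gene of neuroendocrine cells, had 5 sites, 2 of them higher. The R-type gene Cacna1e had 1 site, which fell from 40.5% to 22.3% (-18.6 points), and the N-type gene Cacna1b 1, which moved up by 11.0 points in the authors' deposited table.

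Auxiliary calcium subunit genes were also mixed. Cacna2d2, whose product brings the pore to the surface and binds gabapentinoid drugs, had 4 of 5 sites higher, by 11.6 to 19.6 points, and 1 lower by 17.4 points in the authors' deposited table. Among the beta subunit genes Cacnb2 had 2 island sites 2 bp apart in an intron, which went from 99.5% to 89.8% and from 100% to 90.4% in the authors' deposited table. The Cacnb3 site rose from 86.2% to 93.6% (q = 0.00168), the smallest q of the beta genes, and the Cacnb1 site by 8.59 points in the authors' deposited table. Cacnb4 had 2 sites higher and 1 lower.

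Gamma subunit genes, several of which encode regulators that traffic AMPA-type glutamate receptors, had 10 sites at 6 genes. The stargazin gene Cacng2 had a promoter shore site that averaged 55.5% and 69.9% (14.3 points, q = 3.88e-06) in the authors' deposited table. Cacng4 had the largest rise of the calcium channel genes, from 33.5% to 53.3% (24.3 points, q = 0.00542) at a site listed at -22915 bp in the authors' deposited table. Cacng7 rose from 20.8% to 42.0% in an exon (21.9 points, q = 0.000127), whereas both sites of the muscle gene Cacng1 fell, by 12.7 and 10.1 points in the authors' deposited table. Cacng5 had 1 site in each direction, and the 1 Cacng8 site fell by 13.7 points in the authors' deposited table.

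Sodium channel pore genes had 3 of 10 sites higher, at 4 genes. Scn8a, a channel of axon initial segments, had 3 of 3 sites lower, 2 of which went from 7.72% to 0.231% and from 8.31% to 0% in the authors' deposited table. Both sites of the sensory neuron gene Scn11a, 21 bp apart, fell by 17.8 and 15.3 points, and Scn3a had 1 site in each direction in the authors' deposited table. The beta subunit genes had rises only: Scn3b had 3 of 3 sites higher, its promoter shore site averaging 63.0% and 77.8%, and the Scn2b site rose from 22.1% to 35.6% in the authors' deposited table.

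Promoter and island sites of the channel genes fell about as often as they rose. Of 37 such sites at 32 genes, 18 were higher and 19 lower. Of 29 promoter sites 16 (55.2%) were higher, against 65.2% of all listed promoter sites. Of 17 island sites 6 (35.3%) were higher, against 67.3% of all listed island sites, while in island shores 33 of 44 (75%) were higher, against 65.7%. Island sites were few, and 2 pairs of those that fell, at Kcnj3 and Cacnb2, were 5 and 2 bp apart. The difference between channel genes and the rest was not tested.

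The falling island and promoter sites came from both ends of the scale. At Kcna3, a lymphocyte Shaker channel gene, the promoter island site averaged 7.62% and 0% (-7.30 points, q = 0.000656) and at Kcnh4 7.42% and 0% (-6.93 points) in the authors' deposited table. Of all channel gene sites 5 were listed at 0% in high fat/high sucrose, namely those of Kcna3, Kcnh4, Kcnj3, Cacna1a and Scn8a, and the last of these lay in an exonic island away from the promoter. At the other end, 4 of 5 island sites above 90% in low fat/low sucrose were lower, among them those of Cacnb2 and Kcng4, which started at 99.2% or more. The exception was Kcnj12, which started at 90.6%. A site close to full methylation has little or no room for a rise of the 5 points needed for listing, so its direction says little. The share over all listed sites above 90% was not computed. Rises from 0% were listed at the promoters of Kcna7, to 5.41%, and Kcnh7, to 3.45%, in the authors' deposited table. A site that starts at 0% can only be listed as a rise. Over all listed sites, 295 were at 0% in high fat/high sucrose and 388 at 0% in low fat/low sucrose, and the difference from the channel genes was not tested. The Kcnh7 site is listed at 55 bp, past the end of its window printed above. The promoters of Kcns1 and Kcnv1 moved up by 7.75 and 10.1 points in the authors' deposited table.

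**Figure D4:**
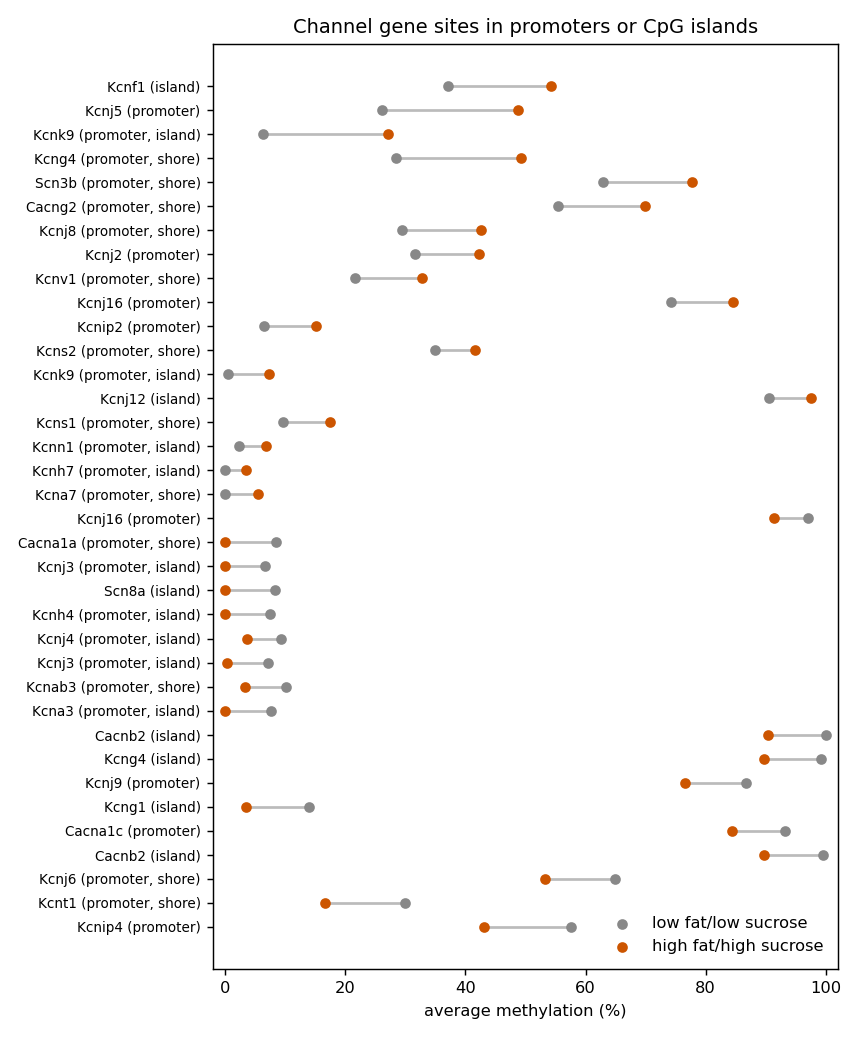
Average methylation (%) in low fat/low sucrose (grey) and high fat/high sucrose (orange) of 36 of the 37 channel gene sites flagged as promoter or CpG island, ordered by listed difference. The sites that rose (18, top) have mostly low or intermediate levels, and those that fell (18 shown, bottom) lie mostly near 0% or above 80%.

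Direction followed the level of methylation, as over the whole table. Of channel gene sites with a mean of both averages from 20 to 40%, 28 of 33 (84.8%) were higher, and of those at 60 to 80% 19 of 40 (47.5%) were, against 85.0% and 32.5% of all listed sites. Below 20% the channel gene share was 59.4% (19 of 32), against 74.9%. From 40 to 60% it was 72.7% (24 of 33), against 59.5%, and at 80% or more 41% (16 of 39), against 35.7%. If each channel gene site had been higher as often as all listed sites of its level, in steps of 5 points, 55.1% would have been higher, beside the 59.9% observed.

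**Figure D5:**
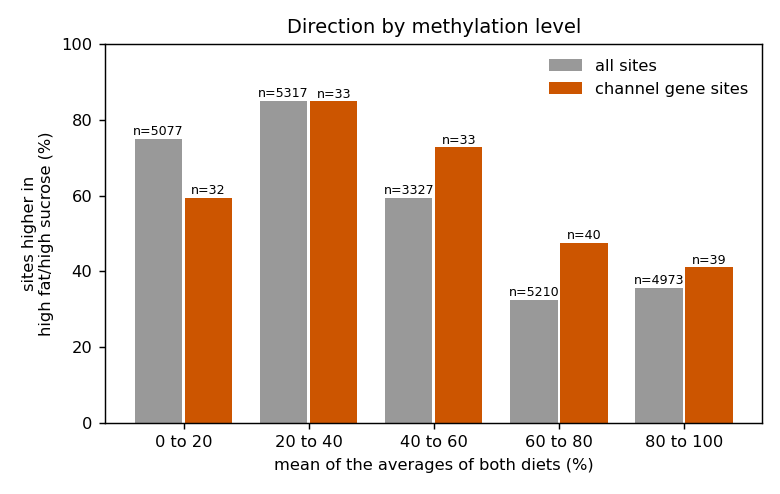
Share of sites higher in high fat/high sucrose (%, vertical axis from 0) by the mean of the averages of both diets, for all listed sites (grey) and channel gene sites (orange), with the number of sites above each bar. Both series peak at 20 to 40% methylation, at 85.0% and 84.8%.

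Few channel gene sites were beside their start. The median distance was 9624 bp, against 8900 bp over all sites, and 87 of 177 lay over 10000 bp away. Of sites within 10000 bp 60 of 90 (66.7%) were higher and of those farther away 46 of 87 (52.9%), beside 59.9% and 55.1% over all sites. At 22 sites upstream of the named start an exon or intron flag was set, so these lie in a transcript other than the one the distance refers to.

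Sites close together mostly moved together. Joined within 1000 bp, the 177 sites formed 150 runs, 22 of them with at least 2 sites. In 12 of the 22 all sites rose, in 6 all fell, and 4 were mixed. The same counts for runs of all listed sites were not computed. Of 17 neighbouring pairs within 100 bp, 16 had the same direction (94.1%, against 97.1% over all sites). Of 10 pairs at 100 to 1000 bp 7 had the same direction (70%, against 75.2% over all sites). The exception within 100 bp was in an intron of Kcnj6, where sites 78 bp apart moved by -13.2 points (q = 2.71e-05) and 10.3 points in the authors' deposited table. The wider mixed runs were those of Cacna1g (171 bp), Kcnma1 (655 bp) and Kcnj16 (721 bp). At Kcnj16 both sites carried the promoter flag, and the one at 74.2% rose to 84.6% while the one at 97.1% fell to 91.4% in the authors' deposited table.

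Some channel genes lie next to each other. With sites of different channel genes joined within 200000 bp, 20 genes fell into 9 neighbourhoods with 34 sites, 21 of them higher. All sites rose in 1 neighbourhood, that of the leak channel genes Kcnk5 and Kcnk16 on chromosome 14 (6 of 6 within 77075 bp), and the other 8 were mixed. In the gamma subunit cluster of Cacng1, Cacng4 and Cacng5 on chromosome 11, 2 of 6 sites were higher. The Shaker cluster of Kcna1, Kcna5 and Kcna6 on chromosome 6 had 3 of 4 higher. Chromosome 15 held the most channel gene sites, 28 at 10 genes, and 23 of them were higher, 8 of these at Kcnj4. Chromosome 11 came next with 23 sites, 10 of them higher. The share over all listed sites of each chromosome was not computed, so these counts cannot be called particular to channel genes.

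Other ion channel genes were a list of TRP, HCN, chloride, ryanodine, IP3, epithelial sodium, Piezo and ligand-gated channel genes and their partners. They had 166 sites at 78 genes, 104 of them higher (62.7%), beside 57.6% of all listed sites. Their median difference with its sign was 8.35 points, that of the potassium, calcium and sodium channel genes 8.63 and that of all sites 7.41. Such a median depends on the share of rises and is not a typical size. The median rise was 10.9 points, against 13.3 for the potassium, calcium and sodium channel genes and 11.7 over all sites. The median falls, in the same order, were -11.9, -10.9 and -11.6 points. Piezo1, a mechanosensitive channel of endothelium and red cells, had 9 sites, 8 of them lower, in contrast to Catsperg1 of the sperm calcium channel (7 of 7 higher) and the store calcium sensor gene Stim2 (6 of 7 higher). The list matched symbols by pattern and also took genes that encode no channel, such as the adaptor gene Grid2ip and Trpc4ap, with 1 site each.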

How the data were processed

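Liver DNA of 13 mice was described from 1 table in which the authors compared the diets. Bisulfite libraries used an Agilent target enrichment kit with mouse all-exon probes, per the labels' protocols. Tools named in the submitters' processing notes are Bismark, methylKit, Trim Galore and CASAVA 1.8, with the build mm9. Per the file headers, each row holds the authors' p-value and q-value, a difference in percentage points and the authors' average percent methylation of each diet. The weighting of the averages and the test are not given in these sources. The difference column departs from the difference of the averages by a median of 1.01 points (at most 6.06) over the channel gene sites. Its sign matched the averages at all 23904 sites.

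Members and lists were chosen with earlier results of these data known. A symbol names the gene whose start is nearest, and a promoter reaches at most 1001 bp from it. Every channel gene site lay on the chromosome RefSeq gives. Counts, shares, medians and runs were computed with Python 3.11.15, pandas 2.3.3 and scipy 1.17.1. The functions joining sites and giving shares by level were tested on simulated data. No test over sites or genes was made, and a test over mice needs values not analysed here. Genes described in full follow a rule: the 10 with the largest rise and the 10 with the largest fall, those with 5 or more sites, a run of 3, or a promoter or island site, and the smallest p of each role, which gave 50 genes. The other genes were added to complete each role, after their values were seen. Some genes enter the counts and are not reported here by name. Alternatives were limits on size, q, distance and feature, the difference of averages, clusters, equal weight per gene and leaving out Kcnj4.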

Additional observations from a re-analysis of the deposited data

How the results depend on the processing

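The share of channel gene sites that were higher lay between 55.2% and 70.9% over 9 alternatives, and 8 of these were within the counting interval of the main share. The alternatives are subsets or reweightings of the same sites, so they are not independent of the main share. By the difference of averages no sign could change, and only sites under 5 points dropped out. Leaving out X could change nothing, since 0 channel gene sites lie on X. At 15 points or more the channel gene share was 70.9%, against 58.7% of all listed sites. Split by feature, a choice made after the data were seen, it was 35.3% in islands, below an even split, and 75% in shores. With few sites left, calcium channel genes had 37.5% higher at q under 0.001 (3 of 8 sites) and 75% within 10000 bp of a start (12 of 16), against 52.5%. Sodium channel genes had 100% at q under 0.001 (3 of 3) and 20% within 10000 bp (1 of 5), against 50%. Other ion channel genes had 71.4% at q under 0.001, against 62.7%. Of all listed sites 59.8% were higher at q under 0.001 and 59.9% within 10000 bp of a start, against 57.6%. The cause of these shifts was not tested. By the difference of averages, the largest difference of 49 of 50 genes was within 1.5 times the listed one, and that of Kcnh7 was not, at 3.45 points against 5.63. In points some gaps were wider, up to 29.5 against 23.96 at Kcnmb1. Runs of 2 or more sites numbered 18 at a joining distance of 500 bp and 28 at 2000 bp, against 22, and runs of 3 or more numbered 2 at each.

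No paired analysis was possible because the table holds diet averages and no single mice. For the same reason leaving out mice, coverage minimums and the replicate number as a block were not run, and the unknown depth limits each average by an unknown amount.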

Other observations

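Genes of ion pumps and exchangers, which build the gradients that channels use, had 88 sites at 33 genes. Of these sites 54 were higher (61.4%), near the 57.6% of all listed sites. This list also matched symbols by pattern and took the regulator gene Slc9a3r1, with 3 of 3 sites higher. Fxyd2, a pump regulator known from kidney, had 3 of 3 sites higher, with a largest rise of 23.5 points in the authors' deposited table. The plasma membrane calcium pump genes Atp2b1 and Atp2b4 had 2 of 5 sites higher each. Among genes of the epithelial sodium channel, Scnn1b had 2 of 2 sites higher, by 8.19 and 24.4 points, and the 1 Scnn1a site fell by 20.2 points in the authors' deposited table.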
